A study of Mus musculus with 10 samples.

Results

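Epithelial serine proteases and the membrane inhibitors that act on them were followed in the terminal ileum of mice after repeated mild social defeat. The set held 8 genes, 6 proteases (Prss27, Prss8, St14, Tmprss2, Tmprss4 and Klk1) and 2 inhibitors (Spint1 and Spint2), of 13666 genes tested. On the array they had 15 probe sets with a single gene symbol, and each gene was represented by the probe set chosen by its highest mean over the 10 arrays. All 8 genes passed the filter on low values, as did 14 of their 15 probe sets. The set was put together around Prss27 with its difference between the groups already known, so the values of Prss27 are a description and carry no test. The other 7 genes were tested in a fit over all genes.

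Each array measured 1 male C57BL/6JJmsSlc mouse (7 weeks of age) fed a purified AIN-93G diet, and n counts mice. The 5 stressed mice were intruders that met male ICR residents over 5 months old, for 5 min on day 1 and for 0.5 min less each day, down to 0.5 min on day 10. The 5 control mice were unstressed, and the sources used here do not say more about their handling. All were fasted for 3 h before the lower small intestine was taken. The RNA came from whole tissue, in which a lower share of cells of a type and less RNA per cell cannot be told apart. Values are on a log2 scale on which 1 unit is a doubling, and differences are stressed minus control.

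Trypsin-like serine proteases are made as inactive precursors that are cut to become active, often by one another. On epithelial surfaces matriptase (St14) and prostasin (Prss8) activate each other and act on tight junctions, on the epithelial sodium channel and on protease-activated receptors. The Kunitz-type inhibitors HAI-1 (Spint1) and HAI-2 (Spint2) sit in the same membranes and hold these enzymes in check, and loss of SPINT2 in humans causes a congenital diarrhoea with sodium loss. Tissue kallikrein (Klk1) releases kinins from kininogens.

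The upstream sequences of 3 members are shown because the results turn on them: Prss27 differed most between the groups, Spint1 was the 1 member whose groups did not overlap with 10 arrays, and Klk1 had the widest range over the 10 arrays, through control mouse 1. RefSeq's table of build GRCm38.p6 matched 5 of the 8 members. Each sequence holds the 250 bases before the annotated start, on the gene's own strand, at chr17:24037993-24038242 (+) for Prss27, chr2:119237110-119237359 (+) for Spint1 and chr7:44225110-44225359 (+) for Klk1. Capitals mark matches to a TATA box (TATAAA), to a site of the intestinal Cdx factors (TTTATG) or to a glucocorticoid receptor half-site (AGAACA), each searched on both strands.
Prss27: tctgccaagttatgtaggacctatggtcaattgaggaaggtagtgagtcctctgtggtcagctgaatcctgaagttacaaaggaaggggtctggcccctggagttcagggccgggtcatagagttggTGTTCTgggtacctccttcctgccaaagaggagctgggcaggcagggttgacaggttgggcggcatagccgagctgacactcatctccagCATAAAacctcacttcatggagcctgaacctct
Spint1: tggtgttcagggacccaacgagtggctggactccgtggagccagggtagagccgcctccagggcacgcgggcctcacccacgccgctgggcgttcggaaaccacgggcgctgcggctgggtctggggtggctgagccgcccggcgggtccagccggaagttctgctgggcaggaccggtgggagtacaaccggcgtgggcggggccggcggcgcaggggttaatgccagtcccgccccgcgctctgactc
Klk1: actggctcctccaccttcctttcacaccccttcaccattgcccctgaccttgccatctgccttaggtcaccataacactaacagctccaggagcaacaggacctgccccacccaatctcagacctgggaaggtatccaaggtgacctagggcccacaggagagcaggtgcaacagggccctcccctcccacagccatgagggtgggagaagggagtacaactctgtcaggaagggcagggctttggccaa

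The Prss27 window held 1 glucocorticoid half-site, at -123 to -118 from the start, and 1 Cdx match, at -33 to -28 from the start, both on the other strand. The Spint1 and Klk1 windows held none of the 3 motifs. Of 32851 upstream windows of the same length, 16.08% held the half-site, 10.76% the Cdx match and 12.37% the TATA box. A match of letters is a description and not a site, and the motifs were chosen with the sequences in view. GC content was 54.0% for Prss27, 72.8% for Spint1 and 58.8% for Klk1.

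Control mouse 1 stood apart across genes, and stressed mouse 4 and control mouse 5 stood apart in marker lists. Across genes control mouse 1 correlated with the others at 0.918 to 0.947, while the others correlated with one another at 0.975 to 0.995. The mean of the 3 measured genes of the large intestine list was 8.48 in stressed mouse 4 and 4.78 to 5.63 in the other stressed mice, against 8.89 in control mouse 1 and 4.69 to 5.44 in the other controls. These genes were Aqp8, Car1 and Fxyd4. Aqp8 and Car1 were high in both mice and Fxyd4 was not, at 4.84 in stressed mouse 4 and 5.01 in control mouse 1. The other 6 genes of that list, all posterior Hox genes, were below the filter. The filter goes by the mean over the 10 arrays, so it does not show how these genes stood in the 2 mice. The mean of 7 ileal enterocyte genes was 11.35 to 11.76 in stressed mice, against 7.68 in control mouse 1 and 11.08 to 11.38 in the other controls. The mean of 10 general epithelial genes such as Vil1 and Krt8 was 11.46 to 11.60 in stressed mice, against 11.35 in control mouse 1 and 11.46 to 11.56 in the other controls. The comparisons are therefore given with all 10 arrays and without control mouse 1, and values without stressed mouse 4 are given where they move.

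**Figure D1:**
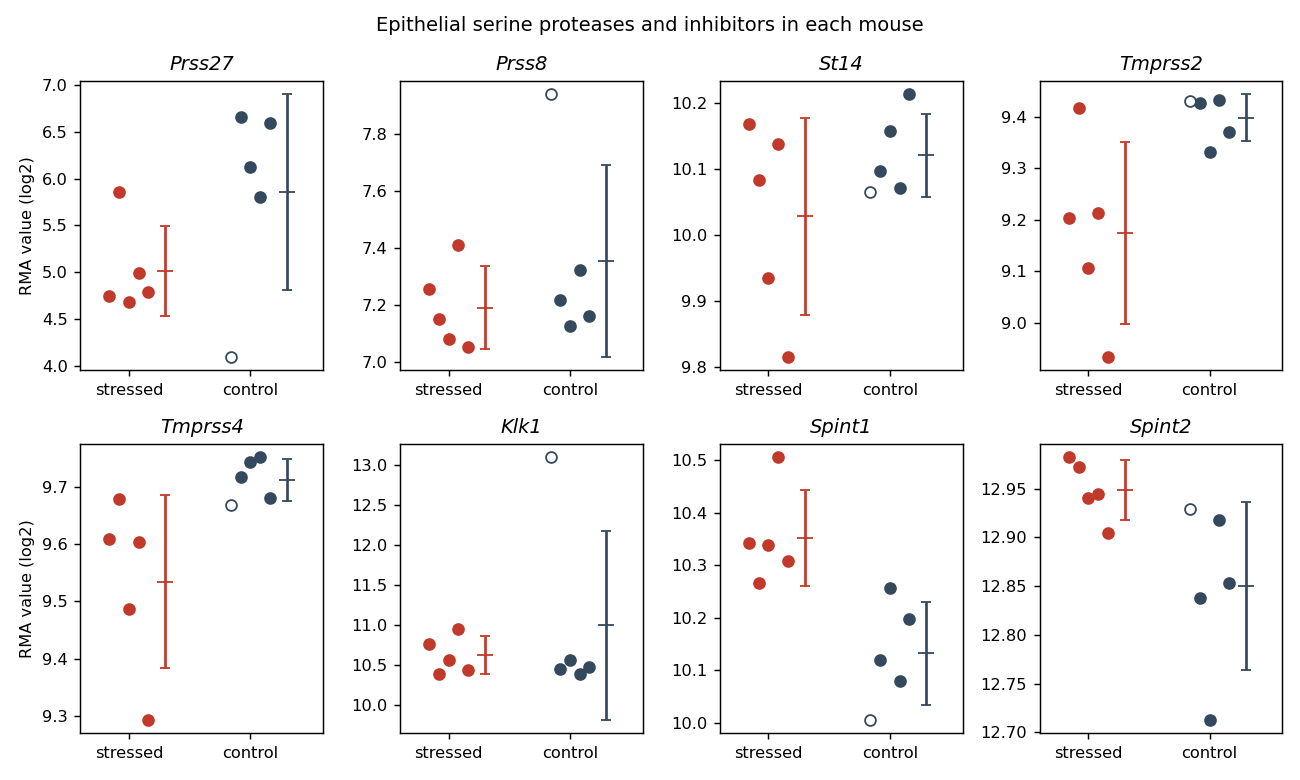
Values of the 8 genes in each mouse (log2 RMA value, 1 point a mouse, each panel with its own axis), stressed mice on the left and control mice on the right, with the mean and SD of 5 mice beside the points. The open circle is control mouse 1, the lowest array for Prss27 at 4.10 and the highest for Klk1 at 13.10, and for Spint1 all 5 stressed mice lie above all 5 controls.

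Prss27, a trypsin-like protease also called marapsin, was at 4.75, 5.85, 4.68, 4.99 and 4.79 in stressed mice 1 to 5, against 4.10, 6.66, 6.13, 5.80 and 6.60 in control mice 1 to 5. Of the stressed mice 4 were below 5.00 and stressed mouse 2 alone reached the range of control mice 2 to 5, just above control mouse 4. Control mouse 1 was below every stressed mouse, and below the filter floor of 4.15. Prss27 averaged 5.01 ± 0.48 (SD, n = 5) in stressed mice, against 5.86 ± 1.05 (SD, n = 5) in all controls and 6.30 ± 0.41 (SD, n = 4) in control mice 2 to 5.

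The difference of Prss27 was -0.84 ± 0.44 (SE) with 10 arrays and -1.28 ± 0.24 (SE) without control mouse 1, a level 2.43-fold lower in stressed mice. Without control mouse 1 and stressed mouse 4 it was -1.28 ± 0.27 (SE). Without control mouse 1, Prss27 was among the 109 genes that limma called at a Benjamini-Hochberg adjusted p under 0.05, 0.798% of those tested, and it was taken into the set with that known. When 1 more mouse was left out it was among the called genes in 2 of 9 fits. Under the other settings in which it was fitted it was among them in 5 of 6. These counts rest on the values by which Prss27 was chosen, so they are a description and no support for its difference. A single probe set, 1440686_at, measured Prss27. Its values in stressed mice were close to the filter floor, where RMA understates differences.

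Of the marker lists, the means of B cell and mast cell genes were at lower values in all 5 stressed mice than in control mice 2 to 5. The mean of 5 measured B cell genes was 4.74 to 5.02 in stressed mice, against 5.10 to 6.51 in control mice 2 to 5 and 4.33 in control mouse 1. The mean of 5 measured mast cell genes was 4.60 to 4.83 in stressed mice, against 5.15 to 6.11 in control mice 2 to 5 and 5.62 in control mouse 1. Both lists were highest in control mouse 5, and control mice 2 to 4 reached at most 5.64 for B cell and 5.33 for mast cell genes. Without control mouse 1 all 5 B cell genes averaged lower in stressed mice. Of the mast cell genes 4 did, most for Mcpt1 and Mcpt2 (-1.55 and -1.53), while Kit averaged higher (0.25). Of the 5 measured genes of each list 1 was called lower without control mouse 1, Pou2af1 and Cpa3. Of the 7 genes of the ileal enterocyte list Cubn and Fgf15 were called higher. Over all genes 0.798% were called without control mouse 1, and that count of 109 genes fell to 6 without stressed mouse 4 as well. In stressed mice Cpa3, Mcpt1 and Mcpt2 averaged 4.01, 3.41 and 3.90, and Cd79a of the B cell list 4.11. These averages are under the filter floor of 4.15, so these genes, Cpa3 among them, passed the filter through the controls. Mcpt4, Cma1 and Ms4a2 of the mast cell list were not among the genes tested. The part of these cells in the values of Prss27 was not tested.

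None of the other 7 genes was called in limma, with 10 arrays or without control mouse 1. Over all genes 0.0% were called with 10 arrays and 0.798% without control mouse 1. At an unadjusted p under 0.05 stood 2 of the 7 with 10 arrays, where 7.82% of all genes did, and 3 of the 7 without control mouse 1, where 18.0% did. The median difference of the 7 genes was -0.16 with 10 arrays and -0.02 without control mouse 1, against medians of 0.003 and 0.025 over all genes. The smallest limma adjusted p among the 7 was 0.497 with 10 arrays and 0.220 without control mouse 1, both for Spint1.

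**Figure D2:**
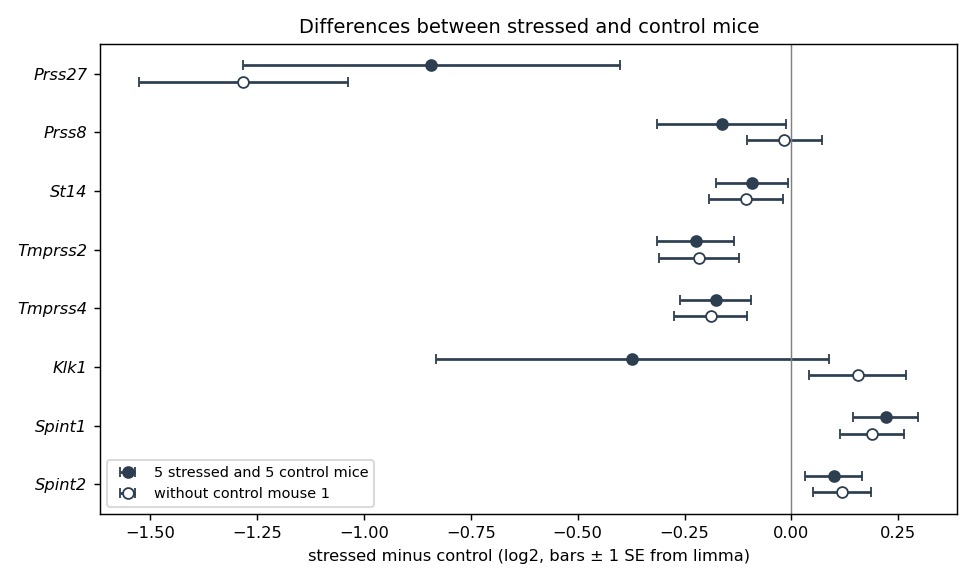
Difference between stressed and control mice of each gene (log2, stressed minus control, bars ± 1 SE from limma), with 10 arrays (filled) and without control mouse 1 (open). Prss27 lies farthest from 0 in both, Klk1 changes side when control mouse 1 is left out, and Spint1 lies above 0 in both.

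St14, which encodes matriptase, was at 10.17, 10.08, 9.94, 10.14 and 9.82 in stressed mice 1 to 5, against 10.07, 10.10, 10.16, 10.07 and 10.21 in control mice 1 to 5. Stressed mice 3 and 5 were below every control and the other stressed mice were among them. The difference was -0.09 ± 0.08 (SE) with 10 arrays (limma adjusted p = 0.820) and -0.11 ± 0.09 (SE) without control mouse 1 (limma adjusted p = 0.545), with a 95% interval of -0.30 to 0.08.

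Prss8, which encodes prostasin, a membrane-bound activator of the epithelial sodium channel, was at 7.26, 7.15, 7.08, 7.41 and 7.05 in stressed mice 1 to 5, against 7.94, 7.22, 7.12, 7.32 and 7.16 in control mice 1 to 5. Control mouse 1 was above all other mice and stressed mouse 4 came next, the same 2 mice that were high for Car1 and Aqp8 of the large intestine list. The difference was -0.16 ± 0.15 (SE) with 10 arrays (limma adjusted p = 0.823) and -0.02 ± 0.09 (SE) without control mouse 1 (limma adjusted p = 0.941), with a 95% interval of -0.21 to 0.18. Without stressed mouse 4 as well it was -0.07 ± 0.08 (SE).

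The transmembrane proteases Tmprss2 and Tmprss4 were at slightly lower values in most stressed mice and did not pass the fit over all genes. Tmprss4 was at 9.61, 9.68, 9.49, 9.60 and 9.29 in stressed mice 1 to 5, against 9.67, 9.72, 9.74, 9.75 and 9.68 in control mice 1 to 5. Without control mouse 1 the groups did not overlap, by a margin under the rounding of these values, as in 2.72% of all genes with the stressed mice lower. With 10 arrays they overlapped, while 1.12% of all genes had all 5 stressed mice below all 5 controls. The difference of Tmprss4 was -0.18 ± 0.08 (SE) with 10 arrays (limma adjusted p = 0.637) and -0.19 ± 0.09 (SE) without control mouse 1 (limma adjusted p = 0.273).

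Tmprss2 had 4 probe sets, of which 1459510_at was below the filter floor at 2.93 to 3.40. The probe set used, 1419154_at, was at 9.20, 9.42, 9.11, 9.21 and 8.93 in stressed mice 1 to 5, against 9.43, 9.43, 9.33, 9.43 and 9.37 in control mice 1 to 5. Stressed mouse 2 was within the range of the controls and the other 4 stressed mice were below it. The difference was -0.22 ± 0.09 (SE) with 10 arrays (limma adjusted p = 0.582) and -0.22 ± 0.09 (SE) without control mouse 1 (limma adjusted p = 0.252). The other probe sets above the floor differed by -0.16 (1458347_s_at) and -0.17 (1449369_at) with 10 arrays, and by -0.19 and -0.21 without control mouse 1. All 3 probe sets thus lay lower in stressed mice on average.

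Tmprss2 and Tmprss4 went up and down together from mouse to mouse. Their values correlated at r = 0.938 over 10 arrays and 0.953 over the 9 without control mouse 1. With St14, Tmprss4 correlated at 0.814 and 0.822. These correlations describe arrays that share the group difference, the array and its quality, and stressed mouse 5 was the lowest for all 3 genes.

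Klk1 was set apart by control mouse 1. It was at 10.76, 10.39, 10.56, 10.95 and 10.43 in stressed mice 1 to 5, against 13.10, 10.44, 10.55, 10.39 and 10.47 in control mice 1 to 5. The 4 other controls lay close together, and stressed mice 1, 3 and 4 were above them, stressed mouse 3 by the smallest margin. The difference was -0.37 ± 0.46 (SE) with 10 arrays (limma adjusted p = 0.875) and 0.15 ± 0.11 (SE) without control mouse 1 (limma adjusted p = 0.496). Without stressed mouse 4 as well it was 0.07 ± 0.10 (SE). These values come from 1415837_at, for which the sign rested on control mouse 1.

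The 4 probe sets of Klk1 did not agree on control mouse 1. For 1448107_x_at the stressed mice reached at most 10.90, against 13.21 in control mouse 1 and at most 10.51 in the other controls. For 1455977_x_at the highest stressed mouse was at 9.43, against 9.53 in control mouse 1. For 1460050_x_at the stressed mice were at 6.14 to 6.45, against 6.31 in control mouse 1 and up to 6.92 in the other controls. In the same order these probe sets differed by -0.385, -0.04 and -0.16 with 10 arrays, and by 0.18, 0.02 and -0.21 without control mouse 1. The sign of Klk1 without control mouse 1 thus also depended on the probe set. Probe sets ending in _x_at can take up related transcripts, and Klk1 has many close relatives of the Klk1b group, so which transcripts these sets measure is uncertain.

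Over the 9 arrays without control mouse 1 the values of Klk1 correlated with the mean of the large intestine list at r = 0.854, and those of Prss8 at 0.753. Those of Spint1 correlated with it at 0.679, and with Klk1 at 0.818. With control mouse 1 included Klk1, Prss8 and Spint1 correlated with the list at 0.817, 0.863 and 0.001. The list was high in stressed mouse 4 among the 9 arrays and in control mouse 1 besides among the 10, and the correlations are given as a description. The part of large intestine tissue in the values of Klk1, Prss8 and Spint1 was not tested.

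**Figure D3:**
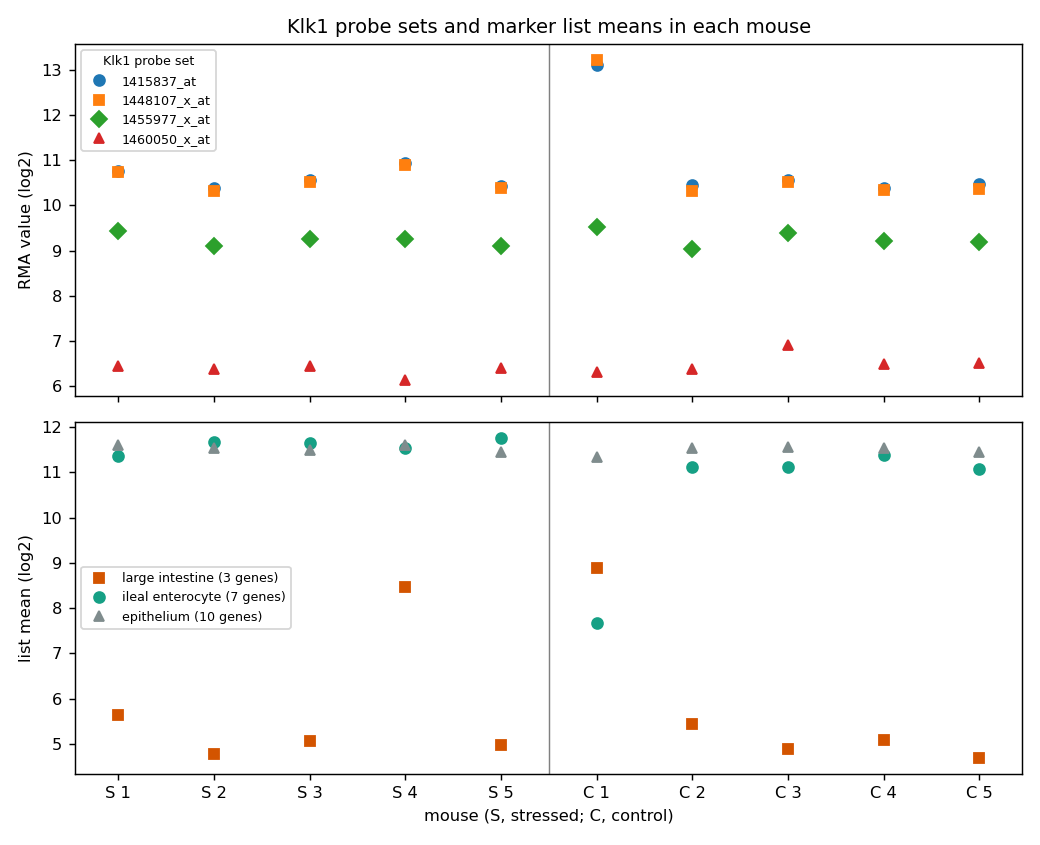
Values of the 4 Klk1 probe sets (above, log2) and means of 3 marker lists (below, log2) in each mouse, stressed mice 1 to 5 on the left and control mice 1 to 5 on the right. Control mouse 1 is high for 2 of the Klk1 probe sets and for the large intestine list and low for the ileal list, and stressed mouse 4 is high for the large intestine list.

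Of the inhibitors, Spint1 was higher in every stressed mouse than in any control. It was at 10.34, 10.27, 10.34, 10.51 and 10.31 in stressed mice 1 to 5, against 10.01, 10.12, 10.26, 10.08 and 10.20 in control mice 1 to 5. The gap was narrow, with stressed mouse 2 just above control mouse 3. Over all genes 1.16% had all 5 stressed mice above all 5 controls, and 4.51% had them above the 4 controls without mouse 1. The difference of Spint1 was 0.22 ± 0.08 (SE) with 10 arrays (limma adjusted p = 0.497) and 0.19 ± 0.08 (SE) without control mouse 1 (limma adjusted p = 0.220), and it did not pass in either. Without stressed mouse 4 as well it was 0.15 ± 0.07 (SE).

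Spint2 was at 12.98, 12.97, 12.94, 12.94 and 12.90 in stressed mice 1 to 5, against 12.93, 12.84, 12.71, 12.92 and 12.85 in control mice 1 to 5, with the groups overlapping. These values come from 1438968_x_at, the probe set with the highest mean. The difference was 0.10 ± 0.07 (SE) with 10 arrays (limma adjusted p = 0.773) and 0.12 ± 0.07 (SE) without control mouse 1 (limma adjusted p = 0.376). Its second probe set, 1451935_a_at, was at 12.55 in control mouse 1, above every other array, and differed by -0.10 with 10 arrays and 0.01 without control mouse 1. The 2 probe sets of Spint2 thus gave opposite signs with 10 arrays.

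Genes related to the set were taken from 5 lists: other membrane-anchored serine proteases, secreted proteases of the trypsin fold, kallikreins, inhibitors, and substrates, receptors and partners. Of their 119 genes 93 had a probe set here and 48 passed the filter. In limma 0 of the 48 were called with 10 arrays, where 0.0% of all genes were, and 0 without control mouse 1, where 0.798% were. At an unadjusted p under 0.05 stood 10 with 10 arrays, where 7.82% of all genes did, and 15 without control mouse 1, where 18.0% did. The median difference of the 48 was -0.07 with 10 arrays and -0.10 without control mouse 1.

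Among membrane-anchored proteases 4 of 18 genes were tested. Prss41 was at 3.87 to 4.31 in stressed mice, against 4.32 to 4.80 in control mice 2 to 5, while control mouse 1 lay within the stressed range. Its stressed values were near the filter floor of 4.15, and stressed mice 2 and 5 were below it (3.87 and 4.14). It differed by -0.34 ± 0.15 (SE) with 10 arrays (limma adjusted p = 0.620) and -0.46 ± 0.11 (SE) without control mouse 1 (limma adjusted p = 0.0768). Tpsg1, a transmembrane tryptase, differed by 0.02 ± 0.18 (SE) with 10 arrays (limma adjusted p = 0.982) and 0.21 ± 0.09 (SE) without control mouse 1 (limma adjusted p = 0.252), and it was highest in control mouse 1 at 7.79. Tmprss6, the liver regulator of iron balance, differed by -0.09 ± 0.11 (SE) with 10 arrays (limma adjusted p = 0.879) and -0.10 ± 0.12 (SE) without control mouse 1 (limma adjusted p = 0.680).

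Among secreted proteases 13 of 26 genes were tested. Plau, the urokinase plasminogen activator, was at 4.65 to 5.01 in stressed mice, against 4.23 to 4.62 in control mice, so that all 5 stressed mice were above all 5 controls, as in 1.16% of all genes. It differed by 0.33 ± 0.09 (SE) with 10 arrays (limma adjusted p = 0.408) and 0.35 ± 0.10 (SE) without control mouse 1 (limma adjusted p = 0.103). Prss23 was at 11.26 to 11.56 in stressed mice, against 10.83 to 11.21 in control mice, also without overlap, and differed by 0.35 ± 0.10 (SE) with 10 arrays (limma adjusted p = 0.384) and 0.30 ± 0.09 (SE) without control mouse 1 (limma adjusted p = 0.127). Prss32 was at 9.38 to 9.84 in stressed mice, against 10.99 in control mouse 1 and 9.81 to 10.04 in the other controls, and differed by -0.53 ± 0.20 (SE) with 10 arrays and -0.32 ± 0.10 (SE) without control mouse 1 (limma adjusted p = 0.557 and 0.137).

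Of the digestive enzymes in the same list, Prss2, Ctrb1, Ctrl and Cela3b were highest in control mouse 5, and Cela1 was highest in control mouse 1. Trypsinogen Prss2 was at 5.15 to 5.47 in stressed mice, against 6.64 in control mouse 5 and 5.09 to 5.60 in the other controls. The mean of 4 measured exocrine pancreas genes (Cpa1, Cela3b, Prss2 and Ctrb1) was 5.12 to 5.28 in stressed mice, against 6.45 in control mouse 5 and 5.03 to 5.44 in the other controls. Prss27 in control mouse 5 was at 6.60, and without control mice 1 and 5 its difference was -1.18 ± 0.27 (SE).

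Of 26 kallikreins 4 were tested. Klk1b21, a close relative of Klk1, differed by -0.23 ± 0.09 (SE) with 10 arrays (limma adjusted p = 0.545) and -0.21 ± 0.09 (SE) without control mouse 1 (limma adjusted p = 0.238). In control mouse 1 it was at 5.16, within the range of the other controls. Klk8 and Klk12 differed by -0.07 ± 0.12 (SE) and -0.05 ± 0.10 (SE) with 10 arrays, with limma adjusted p of 0.921 and 0.932. They differed by -0.15 ± 0.09 (SE) and -0.09 ± 0.10 (SE) without control mouse 1, with limma adjusted p of 0.418 and 0.642.

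Of 24 other inhibitors 12 were tested. In stressed mice 7 were lower and 5 higher with 10 arrays, and 8 were lower and 4 higher without control mouse 1. Their median difference was -0.03 with 10 arrays and -0.14 without control mouse 1, against 0.003 and 0.025 over all genes. Slpi, the secretory leukocyte protease inhibitor, was at 7.85 to 8.30 in stressed mice, against 7.94 to 9.18 in control mice, and differed by -0.46 ± 0.22 (SE) with 10 arrays (limma adjusted p = 0.648) and -0.59 ± 0.20 (SE) without control mouse 1 (limma adjusted p = 0.161). Spink1, a trypsin inhibitor, was at 12.31 to 12.60 in stressed mice, against 11.17 in control mouse 1 and 12.56 to 12.72 in the other controls. It differed by 0.05 ± 0.26 (SE) with 10 arrays (limma adjusted p = 0.977) and by -0.25 ± 0.08 (SE) without control mouse 1 (limma adjusted p = 0.140). Spink2 differed by -0.26 ± 0.11 (SE) and -0.32 ± 0.11 (SE), with limma adjusted p of 0.606 and 0.165.

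Of 25 substrates, receptors and partners 15 were tested. Bdkrb2, the kinin B2 receptor, was at 5.57 to 6.34 in stressed mice, against 5.08 to 5.63 in control mice, and differed by 0.50 ± 0.17 (SE) with 10 arrays (limma adjusted p = 0.485) and 0.57 ± 0.16 (SE) without control mouse 1 (limma adjusted p = 0.110). F2r, the thrombin receptor PAR1, differed by 0.23 ± 0.08 (SE) and 0.27 ± 0.08 (SE), with limma adjusted p of 0.520 and 0.112. Egfr differed by -0.21 ± 0.09 (SE) and -0.23 ± 0.10 (SE), with limma adjusted p of 0.635 and 0.235. Epcam, a cell adhesion protein that matriptase can cleave, and its partner Cldn7 differed by 0.09 and 0.10 with 10 arrays and by 0.05 and 0.04 without control mouse 1.

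**Figure D4:**
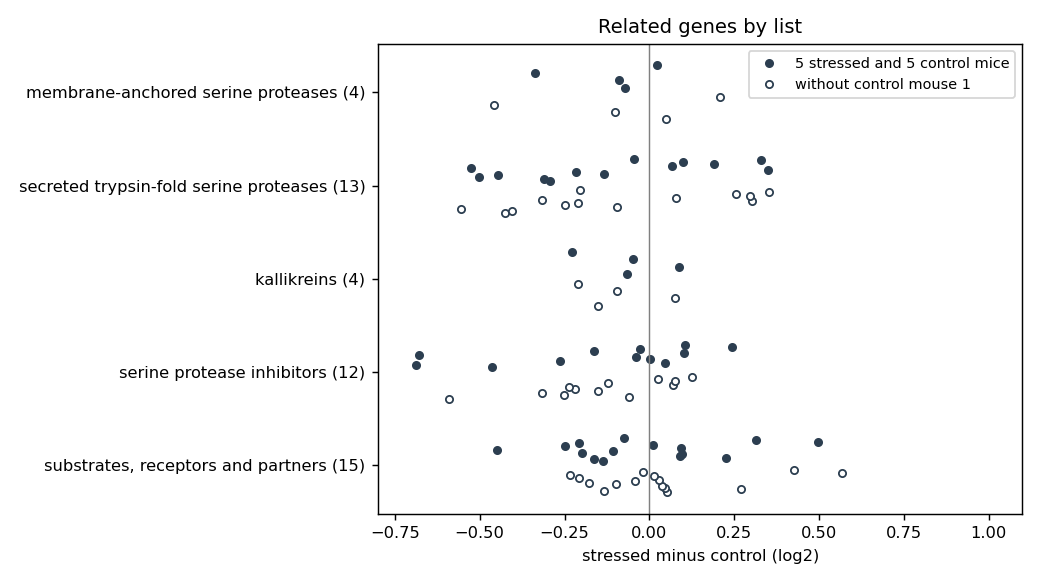
Difference between stressed and control mice (log2, stressed minus control) of each tested gene of the 5 related lists, with the number of genes in brackets, with 10 arrays (filled) and without control mouse 1 (open). The points lie on both sides of 0 in every list.

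The genes whose values over the 10 arrays were most like those of Prss27, by Pearson correlation over 13073 genes with predicted and clone-named transcripts left out, were Gpx2 (r = 0.983), Prr13 (0.966), B4galt1 (0.964), Stom (0.960) and Pla2g5 (0.951). Over the 9 arrays without control mouse 1 they were Eif2s2 (r = 0.979), Gpx2 (0.978), Marveld3 (0.971), Tat (0.969) and Trim40 (0.967). Gpx2, an epithelial glutathione peroxidase, was in both lists. It was at 11.55, 12.08, 11.44, 11.41 and 11.23 in stressed mice 1 to 5, against 10.73, 12.66, 12.44, 12.08 and 12.67 in control mice 1 to 5. As for Prss27, control mouse 1 was the lowest array and stressed mouse 2 the highest stressed mouse. Tat, tyrosine aminotransferase, averaged 5.26 ± 0.42 (SD, n = 5) in stressed mice, against 6.61 ± 0.51 (SD, n = 4) in control mice 2 to 5. These correlations are a description over arrays that share the group difference by which Prss27 was known.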

How the data were processed

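The deposited values were log2 levels of 45101 probe sets on 10 arrays, made by the authors with RMA (background correction, quantile normalization and summary per probe set) per the submitters' processing notes. No source used here gives the software version, and base 2 was taken from the range of values, 1.22 to 14.37. Quantile normalization hides changes in total RNA. Arrays carry no read depth, and their number limits the precision. Per the labels' protocols RNA was taken on RNeasy columns and 100 ng was labelled by a 3' kit. Groups came from the sample titles, which do not say whether mice shared a cage or litter.

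Of the probe sets, 34945 had 1 gene symbol in the platform annotation, 932 several and 9160 none, besides 64 controls. The lowest 40 percent by mean were left out (floor 4.15), and each gene was its probe set with the highest mean, which left 13666 genes. They were fitted with limma 3.58.1 (lmFit, eBayes) in R 4.3.3, Benjamini-Hochberg adjusted over all genes and called at an adjusted p under 0.05. The fit was tested on simulated data.

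Members and lists were chosen with earlier results of these data known. Genes named from the related lists were the 3 with the smallest p without control mouse 1 in each list and any called, with digestive enzymes, Epcam and Cldn7 added after their values were seen. Genes like Prss27 were the 5 with the highest correlation. Alternatives were other filters, the mean over probe sets, a variance trend, array weights, subtraction of the epithelium list mean, the replicate number as a block, and each mouse left out. Genes of the lists not among the tested ones were not analysed here.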

Additional observations from a re-analysis of the deposited data

Results flagged for a closer look

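Of 16 groups of 5 mice (8 genes in 2 groups), 3 held a value whose gap to its nearest neighbour was larger than 0.71 of the group's range, Dixon's limit for 5 samples, which chance exceeds in about 1 group of 20. Prss27 was at 5.85 in stressed mouse 2, against 4.99 in the next stressed mouse (0.737 of the range). Prss8 was at 7.94 in control mouse 1, against 7.32 in the next control (0.758 of the range). Klk1 was at 13.10 in control mouse 1, against 10.55 in the next control (0.938 of the range). In the same mouse the large intestine list was high and the ileal list low, and their part in these values was not tested.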

How the results depend on the processing

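Of 262 values of the 8 genes' differences under the alternatives, 257 kept their direction and their side of the threshold, and 5 changed sign. For Prss27 only the size was looked at (within 1 SD), although it was called in 2 of 9 fits with 1 more mouse left out. Other filters and a variance trend leave a difference unchanged. So do the block with 10 arrays and, for genes with 1 probe set, the mean over probe sets. The count of 257 thus overstates how steady the differences were. Klk1 with 10 arrays, at -0.37, became 0.065 with array weights, and with 1 mouse left out it ran from -0.52 to 0.15, the highest without control mouse 1. Prss8 without control mouse 1, at -0.02, ran from -0.072 to 0.022 with 1 more mouse left out, and was above 0 without control mouse 4, stressed mouse 3 or stressed mouse 5. None of the other 7 genes was called in limma under any alternative, with adjusted p from 0.144. Prss27 ranged from -1.28 to -0.64 with 10 arrays and from -1.49 to -1.16 without control mouse 1. It was not tested where the filter took out the lowest 60 percent (floor 5.53). The count of all genes called with 10 arrays, 0, became 2 with the mean of the gene's probe sets and 41 with array weights, and 0 to 109 when 1 mouse was left out (109 without control mouse 1). The count of 109 without control mouse 1 became 169 with a variance trend and 6 to 154 when 1 more mouse was left out (6 without stressed mouse 4, 14 without stressed mouse 5). Of the related genes 0 to 1 were called when 1 more mouse was left out, Prss41 without control mouse 5 (limma adjusted p = 0.0433). In stressed mice Prss41 averaged 4.15, at the filter floor. The titles give the mice of the 2 groups no link but the replicate number. Correlations of deviations between same-numbered mice ran from -0.297 to 0.277, and 1 of 5 controls correlated best with its own number. Whether same-numbered mice shared a cage or litter was not tested. With the replicate number as a block, 0 genes were called with 10 arrays and 95 without control mouse 1, and Prss27 differed by -0.84 and -1.22. The design fixes these 2 differences, so they are no check of the pairing. With 10 arrays a block leaves each difference as it was. Without control mouse 1, stressed mouse 1 has no partner, and the value equals that without stressed mouse 1. The causes of these shifts were not tested. Values near the filter floor, as for Prss27, limit what the arrays can show.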

Other observations

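Serine protease genes that neighbour Prss27 on mouse chromosome 17 were looked up after the values had been seen. Within 25 coding genes on either side of Prss27 in RefSeq's table of GRCm38.p6 lie 6 other such genes (Prss33, Prss41, Prss32, Prss21, Prss30 and Prss22), of which 3 passed the filter. All 3 averaged lower in stressed mice, while the median difference over all genes was 0.003 with 10 arrays and 0.025 without control mouse 1. None was called in limma in either comparison. Prss41 and Prss32 are also counted in the related lists, and Prss41 averaged 4.15 in stressed mice, at the filter floor. Prss30 was at 9.72, 10.18, 9.97, 10.17 and 10.11 in stressed mice 1 to 5, against 10.69, 10.61, 10.56, 10.52 and 10.30 in control mice 1 to 5. Its highest stressed mouse was below its lowest control, as in 1.12% of all genes. It differed by -0.51 ± 0.11 (SE) with 10 arrays (limma adjusted p = 0.301) and by -0.47 ± 0.11 (SE) without control mouse 1 (limma adjusted p = 0.0639). Prss41 and Prss32 differed by -0.46 ± 0.11 (SE) and -0.32 ± 0.10 (SE) without control mouse 1. In control mouse 1, where Prss27 was at its lowest, Prss32 (10.99) and Prss30 (10.69) were at their highest, and Prss41 was lower than in all but 1 stressed mouse.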
